A study of Homo sapiens with 2 samples.

Results

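The genes for the receptor tyrosine kinases MET and RON, for the TAM receptors (TYRO3, AXL and MERTK) and for their ligands were examined in 2 prostate cancer cell lines. The genes were taken by symbol from the deposited expression table, and all 9 were listed there among 21382 genes. They were the 5 receptor genes MET, MST1R (which encodes RON), AXL, TYRO3 and MERTK and the 4 ligand genes HGF, MST1, GAS6 and PROS1. The study addressed which surface receptors and ligands of prostate cancer cells meet partners on platelets, and RNA-Seq recorded what the cancer cells transcribe. MDA PCa 2b is an established line from a bone metastasis of prostate cancer, and RC77 T/E is an established epithelial line from a prostate tumor. Both lines were left untreated, and total RNA isolated with TRIzol went into strand-specific, paired-end libraries, with 1 library per line. MDA PCa 2b cells were grown in a modified Ham's medium that held fetal bovine serum, cholera toxin, mouse EGF, phosphoethanolamine, hydrocortisone, selenite and insulin, whereas RC77 T/E cells were grown in serum-free keratinocyte medium with EGF and bovine pituitary extract. Cell line and culture medium therefore changed together and cannot be told apart. With 1 library per line, no difference described here has a replicate check, and all values are descriptions of these 2 libraries.

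MET binds hepatocyte growth factor (HGF), and RON, its closest relative, binds macrophage-stimulating protein, the product of MST1. Both ligands are secreted as inactive single chains that serine proteases cleave into active forms. The TAM receptors bind GAS6 and protein S (PROS1), vitamin K-dependent proteins that bridge the receptor to phosphatidylserine exposed on dying cells and on activated platelets.

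Levels are in TPM, the share of transcripts scaled to a fixed total, and are already corrected for transcript length, so levels of different genes can be set side by side. The sequencing depth behind them is unknown, and no counting interval could be given. Many values of the table had lost their decimal mark. It was restored from the digits of each row, and 7 of the 9 genes had only 1 possible position. For MST1R and TYRO3, 2 positions that differ by a factor of 10 were possible in both libraries at once, so that this table leaves the level undetermined while the ratio between the lines is not. Both possible values are given for these genes, and lowest positions were used where a single value was needed.

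All 9 genes had a promoter window in RefSeq (GRCh38.p14). For MET, MST1R, AXL, MERTK and GAS6 the RefSeq start site was the same base as the 5′ end of the gene's interval in the deposited table. On that ground the 250 bases before that start are shown for these 5 genes. They include the members with the largest differences in each direction, but not TYRO3. Capitals mark every match to GGGCGG, the core of a GC box, or to CAGGTG, an E-box, on either strand, and neighboring matches can overlap.
MET, chr7:116671946-116672195, plus strand: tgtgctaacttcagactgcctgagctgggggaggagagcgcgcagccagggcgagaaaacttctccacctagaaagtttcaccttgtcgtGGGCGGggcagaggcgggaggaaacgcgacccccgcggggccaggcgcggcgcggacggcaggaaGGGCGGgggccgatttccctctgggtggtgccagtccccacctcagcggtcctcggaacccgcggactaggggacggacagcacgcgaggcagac
MST1R, chr3:49903874-49904123, minus strand: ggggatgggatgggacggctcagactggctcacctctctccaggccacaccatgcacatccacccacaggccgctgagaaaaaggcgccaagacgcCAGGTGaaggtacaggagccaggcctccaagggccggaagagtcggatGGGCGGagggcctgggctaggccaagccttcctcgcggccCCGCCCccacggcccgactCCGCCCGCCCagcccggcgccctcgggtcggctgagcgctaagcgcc
AXL, chr19:41218973-41219222, plus strand: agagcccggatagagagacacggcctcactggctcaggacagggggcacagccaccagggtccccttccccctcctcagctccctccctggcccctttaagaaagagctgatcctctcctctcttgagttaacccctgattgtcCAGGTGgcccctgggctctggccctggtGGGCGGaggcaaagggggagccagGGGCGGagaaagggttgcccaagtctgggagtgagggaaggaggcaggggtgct
MERTK, chr2:111898357-111898606, plus strand: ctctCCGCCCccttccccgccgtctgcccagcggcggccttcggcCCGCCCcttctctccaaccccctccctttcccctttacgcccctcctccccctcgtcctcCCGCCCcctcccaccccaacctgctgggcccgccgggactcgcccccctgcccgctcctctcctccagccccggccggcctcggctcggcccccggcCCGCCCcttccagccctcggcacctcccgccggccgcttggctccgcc
GAS6, chr13:113864077-113864326, minus strand: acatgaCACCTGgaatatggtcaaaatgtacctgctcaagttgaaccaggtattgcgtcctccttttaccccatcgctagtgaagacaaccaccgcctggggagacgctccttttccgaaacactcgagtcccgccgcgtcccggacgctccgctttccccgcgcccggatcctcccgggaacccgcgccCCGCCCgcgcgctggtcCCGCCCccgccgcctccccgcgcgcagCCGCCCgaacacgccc
GGGCGG was present in all 5 windows, and 42.6% of the 35116 promoter windows of this length held it. MST1R and MERTK each had 4 matches, GAS6 had 3, and MET and AXL had 2 each. CAGGTG was found in 3 windows, those of MST1R, AXL and GAS6, against 17.5% of all windows. The AP-1 letters TGANTCA, in which N is any base, were in 0 of the 5 windows and in 6.57% of all windows. The TEAD letters CATTCC (11.9% of all windows) were likewise in 0 of the 5. The share of G and C in the 5 windows ran from 64.4% for AXL to 78.8% for MERTK, where the median over all windows was 58%. AXL and TYRO3 have a second RefSeq start each, so that the 9 genes have 11 windows. Over all 11, GGGCGG was in 8 and absent from those of HGF and of the downstream starts of AXL and TYRO3. CAGGTG was in 4 of the 11, with MST1 as the addition. TGANTCA was in 1, the upstream TYRO3 window, and CATTCC in 2, those of HGF and of the downstream AXL start. HGF (50.0%), the downstream AXL start (54.4%) and PROS1 (57.6%) were under the median share of G and C. These matches describe the sequence only, and binding was not measured.

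MET (ENSG00000105976, chr7:116672196-116798377 in GRCh38), the receptor for HGF, had a level of 0.0349 TPM in MDA PCa 2b cells and 69.2 TPM in RC77 T/E. MET was thus near 0 in the first line and clearly expressed in the second, a plain ratio of 1981 that rests on a very low denominator. MST1R (ENSG00000164078, chr3:49887002-49903873) had a level of 3.0 or 30.0 TPM in MDA PCa 2b cells and of 47.9 or 479.4 TPM in RC77 T/E. RON transcripts were therefore present in both lines and 16.0-fold higher in RC77 T/E at either position. MST1R was above MET in MDA PCa 2b at both positions, whereas the order of MET and MST1R in RC77 T/E was undetermined. In bulk samples, fewer cells of a type and less RNA per cell cannot be told apart.

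The 3 TAM receptor genes did not share a direction. AXL (ENSG00000167601, chr19:41219223-41261766) was at 0.0499 TPM in MDA PCa 2b cells and at 46.0 TPM in RC77 T/E. Like MET, it was near 0 in MDA PCa 2b, and its plain ratio was 922. MERTK (ENSG00000153208, chr2:111898607-112029561), the TAM receptor known for the uptake of dying cells by macrophages, had a level of 3.86 TPM in MDA PCa 2b cells and 0.119 TPM in RC77 T/E. It was 32.3-fold higher in MDA PCa 2b, over a low denominator, the opposite direction to AXL. TYRO3 (ENSG00000092445, chr15:41557675-41583589), a TAM receptor best known from the nervous system, was at 15.4 or 154.4 TPM in MDA PCa 2b cells and at 6.42 or 64.2 TPM in RC77 T/E. It was present in both lines and 2.40-fold higher in MDA PCa 2b. The TAM receptors ranked TYRO3, MERTK, AXL in MDA PCa 2b at either position of the TYRO3 mark. In RC77 T/E MERTK was the lowest of the 3, and the order of AXL and TYRO3 was undetermined.

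**Figure D1:**
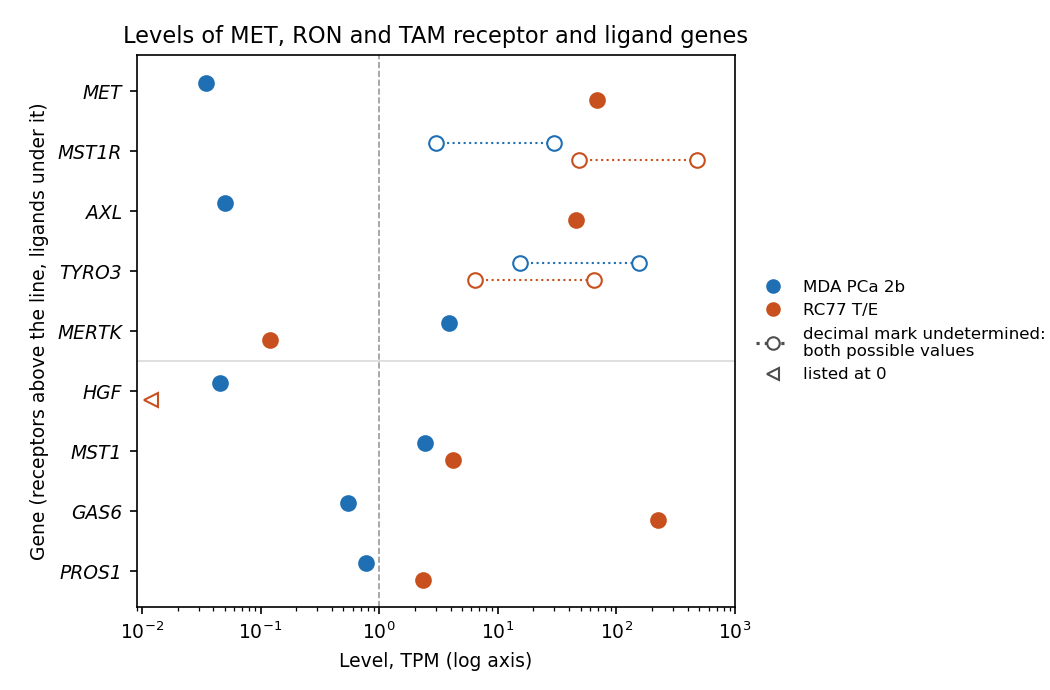
Level of each gene in TPM (x axis, log scale) in the MDA PCa 2b and RC77 T/E libraries, with receptors above and ligands under the grey line and a dashed line at 1 TPM. Open circles joined by dots are the 2 possible values of MST1R and TYRO3, and the triangle marks HGF, listed at 0 in RC77 T/E. MET, AXL and GAS6 lie under 1 TPM in MDA PCa 2b cells and above 40 TPM in RC77 T/E, whereas MERTK lies above 1 TPM in MDA PCa 2b and under it in RC77 T/E.

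Among the ligands, HGF (ENSG00000019991, chr7:81699010-81770438) had a level of 0.0452 TPM in MDA PCa 2b cells and was listed at 0 in RC77 T/E. The gene for the MET ligand was thus at or near 0 in both libraries, also in RC77 T/E, where MET was high. MST1 (ENSG00000173531, chr3:49683947-49689501), the RON ligand gene, was at 2.45 TPM in MDA PCa 2b cells and at 4.22 TPM in RC77 T/E, 1.72-fold higher in the latter. GAS6 (ENSG00000183087, chr13:113820549-113864076), which binds all TAM receptors, was at 0.545 TPM in MDA PCa 2b cells and at 224.9 TPM in RC77 T/E. GAS6 had the highest determined level of the 9 genes and was 412-fold higher in RC77 T/E, over a low denominator. PROS1 (ENSG00000184500, chr3:93873051-93980003), which encodes the anticoagulant protein S and a ligand of TYRO3 and MERTK, was at 0.779 TPM in MDA PCa 2b cells and at 2.36 TPM in RC77 T/E, a ratio of 3.03. The ligands thus ranked MST1, PROS1, GAS6, HGF in MDA PCa 2b cells and GAS6, MST1, PROS1, HGF in RC77 T/E.

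At a threshold of 1 TPM, 4 of the 9 genes were expressed in MDA PCa 2b (MST1R, MST1, TYRO3 and MERTK) and 7 in RC77 T/E (MET, MST1R, MST1, AXL, TYRO3, GAS6 and PROS1). Of all 21382 genes, 49.6% were past it in the former library and 52.8% in the latter. The members past the threshold in both lines were MST1R, MST1 and TYRO3. The RON receptor and its ligand gene were thus past it in both lines. AXL and GAS6 were past it in RC77 T/E and under it in MDA PCa 2b, and MERTK was past it in MDA PCa 2b cells and under it in RC77 T/E.

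To place these differences among all genes, log2((RC77 T/E TPM + 1)/(MDA PCa 2b TPM + 1)) was computed, a scale that understates the change of low genes. Of the 9 members, 8 had a mean of at least 1 TPM over the libraries and HGF did not. MET, AXL, GAS6, MERTK and PROS1 were under 1 TPM in 1 of the lines and passed through the line in which they were higher. On this scale 4 members, MET, MST1R, AXL and GAS6, were higher in RC77 T/E by 2-fold or more, where 2250 of 11624 genes (19.4%) were. TYRO3 and MERTK, 2 members, were higher in MDA PCa 2b by 2-fold or more, where 2324 genes (20.0%) were. The log2 ratios were 6.08 for MET, 3.61 for MST1R, 5.49 for AXL and 7.19 for GAS6. They were -1.15 for TYRO3 and -2.12 for MERTK, and 0.60 for MST1 and 0.92 for PROS1, which were both within 2-fold.

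GAS6 lay near the end of the distribution, with 67 genes that had a larger log2 ratio. There were 110 such genes for MET, 151 for AXL and 425 for MST1R, and with undetermined marks at their highest positions these numbers were 201, 262, 316 and 528 for GAS6, MET, AXL and MST1R. In the other direction, 635 genes had a lower ratio than MERTK and 1891 a lower ratio than TYRO3. The median log2 ratio over the 11624 genes was -0.15. Relative to that median, TYRO3 was at -0.99 and PROS1 at 1.07, so that TYRO3 was within 2-fold and PROS1 past it.

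**Figure D2:**
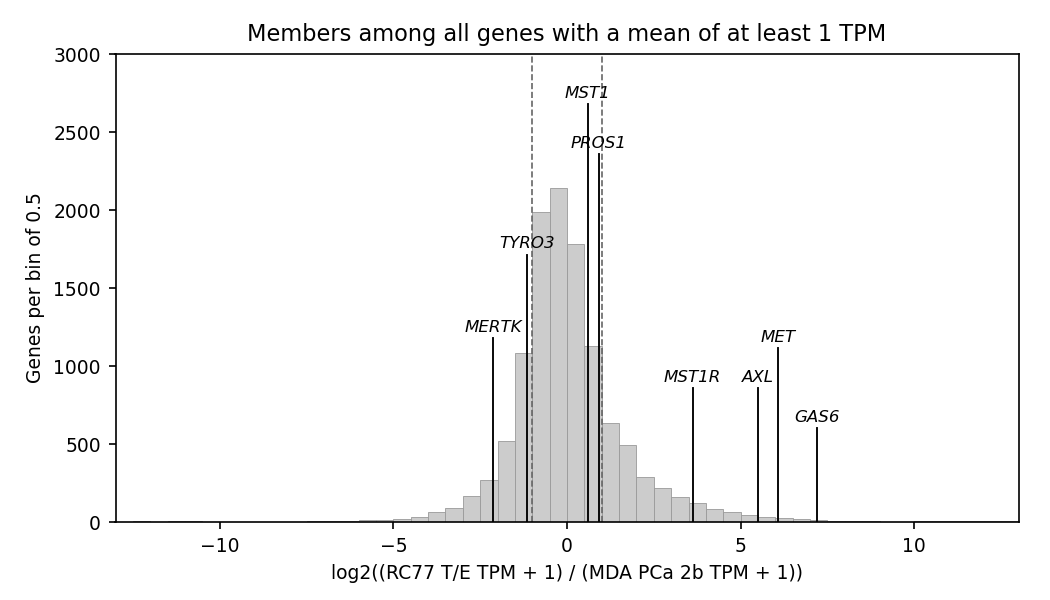
Number of genes (y axis) in each bin of the log2 ratio of RC77 T/E over MDA PCa 2b (x axis), for the 11624 genes that averaged at least 1 TPM, with dashed lines at 2-fold. Vertical lines mark the 8 members that passed this filter, and their height has no meaning. GAS6, MET, AXL and MST1R stand to the right, from 3.61 to 7.19, and MERTK and TYRO3 to the left of the dashed lines.

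The member receptors were next set among the 58 receptor tyrosine kinase genes of the table. At 1 TPM, 25 of the 58 were expressed in MDA PCa 2b cells and 22 in RC77 T/E, 19 of them in both lines, beside the 49.6% and 52.8% of all genes. Among the 45 with a determined mark, MET was the highest in RC77 T/E and AXL was next, ahead of EPHB4, an ephrin receptor, at 43.1 TPM. EPHB4 was at 40.5 TPM in MDA PCa 2b, so that it was at a like level in both libraries, and 24 of the determined genes were above MET and 19 above AXL in that line. The 13 kinases with an undetermined mark were all past 1 TPM in RC77 T/E and made up most of the 22 expressed there. The 45 determined genes thus included every kinase under 1 TPM in that line, and a rank among them leaves out most expressed kinases. By this table alone, the 13 could not all be ranked against MET and AXL. Depending on the positions of these marks, 0 to 11 kinases lay above MET and 2 to 13 above AXL in RC77 T/E. The upper ends count EPHA1 at its highest position. The study's own text gives EPHA1 a value that matches its lowest position, 24.5 TPM in RC77 T/E, which is under MET and AXL. These upper ends are therefore too high. In MDA PCa 2b, 14 to 19 lay above MERTK.

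Of the 58 kinases, 27 had a mean of at least 1 TPM, and of these 11 were higher in RC77 T/E by 2-fold or more, against 19.4% of all genes, 11 were so in MDA PCa 2b, against 20.0%, and 5 were within 2-fold. Their median log2 ratio was 0.09. On the log2(TPM + 1) scale the largest ratios toward RC77 T/E were those of MET and AXL, and MST1R came next to them in absolute size at the lowest and at the highest positions. ERBB3 and EPHB3 had the lowest ratios on this scale. By plain ratio EPHA10, an ephrin receptor without kinase activity, was the farthest of these 27 toward MDA PCa 2b, at 3.57 TPM there and 0.00327 TPM in RC77 T/E, a 1092-fold difference over a very low denominator. ERBB3, the kinase-impaired receptor for neuregulins, was 8.97-fold higher in MDA PCa 2b, and EPHB3, an ephrin receptor, was 9.76-fold higher there. The marks of both were undetermined, with at least 72.4 TPM for ERBB3 and 18.3 TPM for EPHB3 in MDA PCa 2b.

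**Figure D3:**
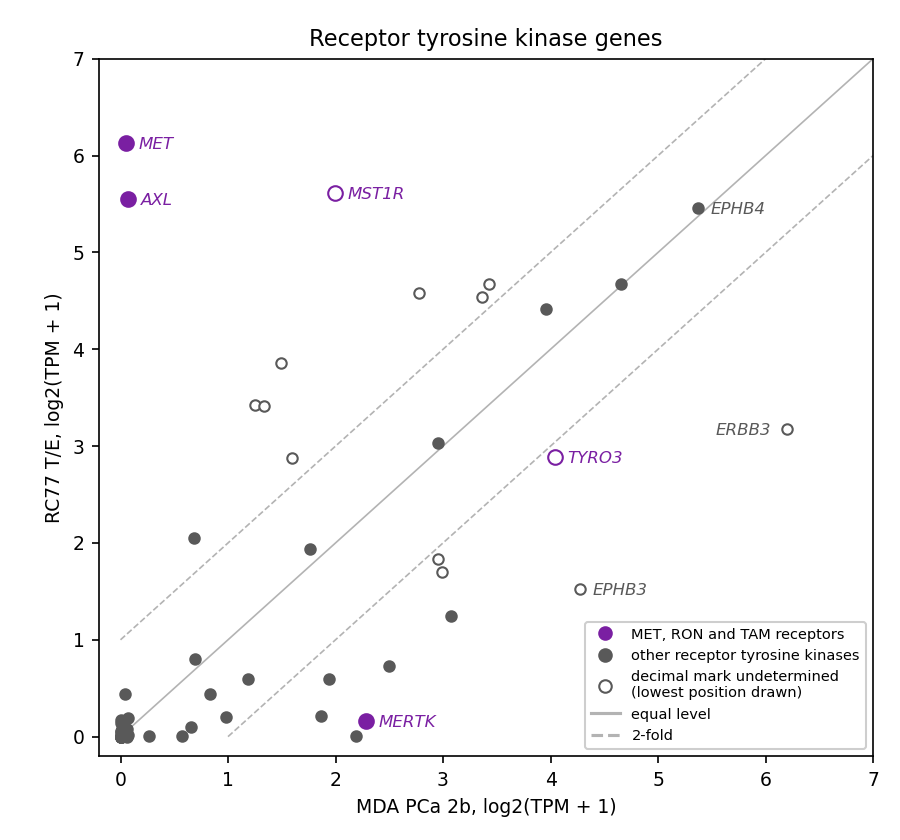
Levels of the 58 receptor tyrosine kinase genes as log2(TPM + 1) in MDA PCa 2b cells (x axis) and RC77 T/E (y axis), with lines of equal level and of 2-fold difference. Purple points are the member receptors and open circles have an undetermined mark, drawn at the lowest position. MET and AXL stand at the upper left, MST1R near them, and MERTK at the lower edge.

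Proteases that can activate the ligands of MET and RON were read together with their inhibitors. Of the 12 genes listed, 8 had a mean of at least 1 TPM, of which 2 were higher in RC77 T/E by 2-fold or more and 2 in MDA PCa 2b, with a median log2 ratio of 0.13. These shares were near those of all genes, 19.4% and 20.0%, and the median of all genes was -0.15. PLAU, the urokinase gene, was at 0.373 TPM in MDA PCa 2b cells and at 235.7 TPM in RC77 T/E. PLAT, the gene of tissue plasminogen activator, was at 0.0764 and 32.2 TPM in the same order. Both plasminogen activators were thus near 0 in MDA PCa 2b cells and high in RC77 T/E. TMPRSS2, a membrane serine protease, was at 482.9 TPM in MDA PCa 2b cells and 0.108 TPM in RC77 T/E. HPN, which encodes hepsin, an activator of both pro-HGF and pro-MSP, was at 10.4 or 104.0 TPM in MDA PCa 2b cells and listed at 0 in RC77 T/E. TMPRSS2 and HPN were thus higher in the line with the lower MET and MST1R levels. SPINT1 and SPINT2 encode inhibitors of HGF-activating membrane proteases such as hepsin, and both lay within 2-fold. SPINT1 was at 136.1 and 132.8 TPM and SPINT2 at 438.2 and 536.3 TPM in MDA PCa 2b cells and RC77 T/E.

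Of the 12 genes for MET coreceptors and relatives that share the semaphorin domain, all 12 had a mean of at least 1 TPM, 5 were higher in RC77 T/E by 2-fold or more and 2 in MDA PCa 2b, with a median log2 ratio of 0.78. Of all genes, 19.4% were so toward RC77 T/E and 20.0% toward MDA PCa 2b. CD44, a hyaluronan receptor of which some isoforms act as MET coreceptors, was at 0.786 TPM in MDA PCa 2b cells and at 363.7 TPM in RC77 T/E. ITGB4, the integrin beta subunit of hemidesmosomes, was at 4.51 and 462.8 TPM. Both were higher in the line in which MET was higher. SEMA4D, the ligand of plexin B1, was at 7.68 TPM in MDA PCa 2b cells and at 0.233 TPM in RC77 T/E. NRP1, a coreceptor for semaphorins and VEGF, was 2.88-fold higher in MDA PCa 2b with an undetermined level.

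All 14 adaptors and effectors downstream of MET and RON had a mean of at least 1 TPM, 4 were higher in RC77 T/E by 2-fold or more, 1 was so in MDA PCa 2b cells and 9 were within 2-fold, with a median log2 ratio of 0.10. Over all 11624 genes, 19.4% were higher in RC77 T/E, 20.0% in MDA PCa 2b and 7050 (60.7%) within 2-fold, so that the share of adaptors within 2-fold was near that of all genes. SHC1, an adaptor that links receptors to RAS, was 9.43-fold higher in RC77 T/E with an undetermined level. GAB1, the docking protein of MET, was at 0.808 TPM in MDA PCa 2b cells and at 3.06 TPM in RC77 T/E. RANBP10 was the gene of this list that was higher in MDA PCa 2b by 2-fold or more, at 3.25-fold with an undetermined level.

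Of the 11 genes for receptor shedding, ubiquitination and dephosphorylation, 10 had a mean of at least 1 TPM, 2 were at least 2-fold higher in each line and 6 were within 2-fold, with a median log2 ratio of 0.56. The shares of all genes were 19.4% toward RC77 T/E and 20.0% toward MDA PCa 2b, near those of this list. CBL, a ubiquitin ligase gene counted as within 2-fold, was 2.21-fold higher in RC77 T/E by plain ratio, and its log2 ratio was 0.95 at the lowest and 1.12 at the highest position of its mark. ADAM17, a protease that sheds receptors from the cell surface, was 3.22-fold higher in RC77 T/E, and PTPN1, a tyrosine phosphatase, was 3.27-fold higher. PTPRJ, a receptor-type tyrosine phosphatase, was 23.5-fold higher in MDA PCa 2b. LRIG1, a transmembrane protein that lowers receptor levels, was 7.62-fold higher in MDA PCa 2b. The levels of these 4 genes were undetermined.

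The vitamin K cycle, which modifies GAS6 and protein S, was expressed in both lines. Of the 8 genes for it and for other TAM ligands, 4 had a mean of at least 1 TPM, 1 was higher in RC77 T/E by 2-fold or more and 3 were within 2-fold, with a median log2 ratio of 0.27, beside 19.4% of all genes higher in RC77 T/E and 60.7% within 2-fold. GGCX, the carboxylase that acts on GAS6 and protein S, was 1.30-fold and VKORC1, which recycles vitamin K, 1.15-fold higher in RC77 T/E, on undetermined levels of at least 8.12 and 70.8 TPM in MDA PCa 2b. VKORC1L1, a relative of VKORC1, went the other way and was 1.97-fold higher in MDA PCa 2b, at an undetermined level of at least 17.4 TPM. LGALS3, the galectin-3 gene, was at 1.24 TPM in MDA PCa 2b cells and 127.0 TPM in RC77 T/E. The ligand genes TUB and TULP1 were under 1 TPM in both libraries.

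Of the 14 TAM effectors and partners, 13 were listed, 10 had a mean of at least 1 TPM, 3 were higher in RC77 T/E by 2-fold or more and 1 in MDA PCa 2b, with a median log2 ratio of -0.13. The shares of all genes were again 19.4% and 20.0%. SOCS1 and SOCS3 encode feedback inhibitors of cytokine signaling that TAM receptors induce in immune cells. SOCS1 was at 0.307 TPM in MDA PCa 2b cells and 4.12 TPM in RC77 T/E, and SOCS3 at 0.0570 and 3.34 TPM. PIK3R2, a regulatory subunit of phosphoinositide 3-kinase, was 3.21-fold higher in MDA PCa 2b with an undetermined level. VAV1 and ELMO1, which are mainly expressed in blood cells, were at 0.00347 and 0.00724 TPM in MDA PCa 2b cells and listed at 0 in RC77 T/E.

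**Figure D4:**
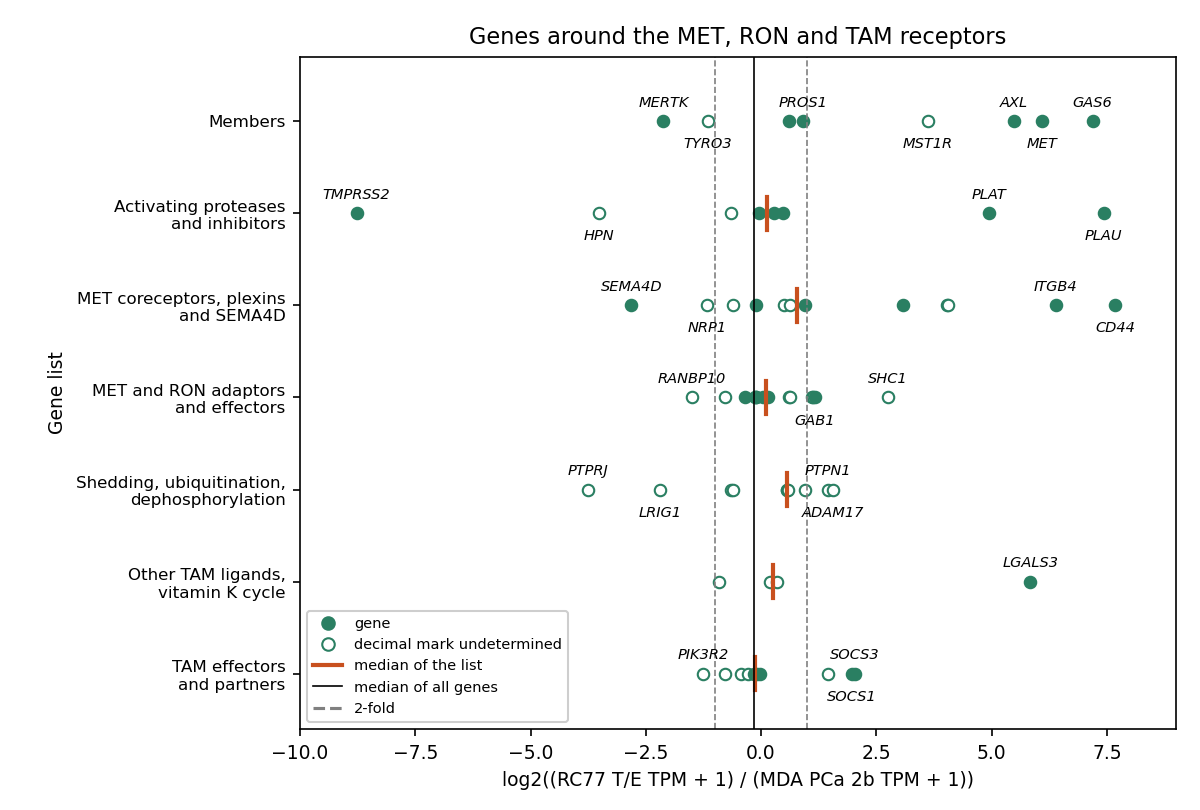
Log2 ratio of RC77 T/E over MDA PCa 2b (x axis) for each gene with a mean of at least 1 TPM, by gene list (y axis), with dashed lines at 2-fold. Orange bars are the medians of the lists other than the members and the black line is the median of all genes, -0.15. PLAU, PLAT, CD44, ITGB4 and LGALS3 stand far to the right and TMPRSS2 far to the left.

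Some members share sequence with near copies or overlap other genes, and their levels are uncertain to that extent. MST1 has the near copies MST1P2, at 1.73 TPM in MDA PCa 2b cells and 2.70 TPM in RC77 T/E, and MST1L, at 0.38 and 0.642 TPM. All 3 were higher in RC77 T/E by 1.56- to 1.72-fold, and reads of such copies may not be told apart. TYRO3P, a pseudogene of TYRO3, was at 0.256 and 0.198 TPM. In GENCODE release 29, MST1 overlaps the opposite-strand genes APEH by 17 bases and RNF123 by 3 bases. GAS6 shares 25196 bases with GAS6-AS1 on the opposite strand, which was at 0.467 TPM in MDA PCa 2b cells and 0.331 TPM in RC77 T/E. GAS6-AS1 was thus far under GAS6 in RC77 T/E and near it in MDA PCa 2b, and whether the authors' quantification used strand is not given in the sources used here. The genes that overlap MST1R, AXL, MERTK and PROS1, and a noncoding gene on the strand of MST1, were not among the rows used. MET, HGF and TYRO3 had no overlapping gene.

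Both lines were checked against markers of prostate epithelium and of other cell types. All 5 epithelial markers were past 1 TPM in both lines, and the keratin KRT18 was at 320.5 TPM in MDA PCa 2b cells and 324.8 TPM in RC77 T/E. KRT8, its partner keratin, was 1.23-fold higher in MDA PCa 2b at an undetermined level. The prostate luminal markers reported here, which are only part of the planned list, were KLK3, KLK2, HOXB13 and FOLH1. These markers were past 1 TPM in MDA PCa 2b and were listed at 0 in RC77 T/E. They summed to at least 5518 TPM in MDA PCa 2b, most of it from KLK3, which encodes prostate-specific antigen, at 5323 TPM. The 5 basal markers summed to 40 TPM in MDA PCa 2b, where TP63 was listed at 0, and to at least 9261 TPM in RC77 T/E. All 5 were higher in RC77 T/E by 2-fold or more, led by KRT5 at 0.00435 TPM in MDA PCa 2b cells and 4027 TPM in RC77 T/E. In MDA PCa 2b, KRT14 at 37.4 TPM and KRT15 at 2.42 TPM were past 1 TPM as well. MET, AXL and GAS6 were thus high in the library with the higher basal marker levels. The part of cell type in these differences was not tested.

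Because AXL, MERTK and GAS6 are also known from stromal cells and macrophages, markers of those cells were read beside them. The 7 fibroblast and stromal markers summed to 2.86 TPM in MDA PCa 2b cells and 9.22 TPM in RC77 T/E, with COL1A1 the most abundant in RC77 T/E at 8.24 TPM and COL3A1, LUM and POSTN listed at 0 there. In MDA PCa 2b the most abundant was COL1A2 at 0.588 TPM. The 8 macrophage and leukocyte markers summed to 0.972 and 43.6 TPM, with CD68, a lysosomal protein gene, the most abundant in both libraries at 0.663 and 37.9 TPM. CD14 was at 0.0730 TPM in MDA PCa 2b cells and 4.92 TPM in RC77 T/E, and CSF1R and LAPTM5 were higher in RC77 T/E as well, at 0.353 and 0.356 TPM there against 0.0314 and 0.0709 TPM in the other line. ITGAM was at 0.0796 TPM in MDA PCa 2b cells and 0.0241 TPM in RC77 T/E. PTPRC, the common leukocyte antigen gene, CD163 and TYROBP were listed at 0 in RC77 T/E and were under 0.04 TPM in MDA PCa 2b. The part of such cells in the AXL, MERTK and GAS6 differences was not tested. The 5 endothelial markers summed to 0.221 and 0.0833 TPM, with VWF the most abundant in MDA PCa 2b at 0.191 TPM, KDR the most abundant in RC77 T/E at 0.0553 TPM and PECAM1 listed at 0 in RC77 T/E. The 6 platelet markers summed to at least 5.22 and 3.29 TPM, with GP1BB the most abundant at no less than 4.93 and 2.22 TPM. GP1BB and PPBP were higher in MDA PCa 2b, and PF4 and GP9 were listed at 0 in both libraries. ITGA2B, at 0.0320 and 0.415 TPM, and TUBB1, at 0.233 and 0.659 TPM, were higher in RC77 T/E.

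MET was the member receptor with the largest absolute log2 ratio, and at the lowest positions also the one with the highest level. By distance in log2(TPM + 1) over the 2 libraries, the nearest of 11159 protein-coding genes with a determined mark were COL8A1, C3 and GJA1, at distances of 0.04, 0.05 and 0.06. COL8A1 was at 0.00623 TPM in MDA PCa 2b cells and 68.3 TPM in RC77 T/E. C3 was at 0.0606 and 71.1 TPM and GJA1 at 0.0717 and 71.2 TPM. These genes were likewise near 0 in MDA PCa 2b, and a likeness over 2 libraries says nothing more than that.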

How the data were processed

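RNA-Seq values were used for both cell lines, which were grouped by the labels. The deposited unit is TPM, which the authors computed from paired-end reads. The submitters' processing notes name CASAVA, FastQC 0.11.9, Trimmomatic 0.38, Salmon 1.2.0 and the build GRCh38, without roles or order. In the deposited table, TPM values of at least 1 with 3 or more decimals appear as digits grouped by commas, without a decimal mark. The mark was restored by requiring that both values of a row give the authors' pooled mean and standard error columns, with at most 3 digits before the mark where commas were used; these columns served for nothing else. Of 22791 rows, 16284 had 1 possible position and 6507 had 2 or 3. Repeated loci (87 rows) were dropped and loci of a symbol summed. At lowest positions the columns summed to 751125 and 682469 TPM in the MDA PCa 2b and the RC77 T/E library, and at highest positions to 2416346 and 2140326, whereas a complete set of TPM values sums to 1000000. The restoration was tested on simulated data.

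The design had assumed a table that could be read directly. The number of per-sample columns without a matching sample was 0. Log2 ratios used a pseudocount of 1 TPM and a mean of at least 1 TPM, and a 2-fold threshold. No test was possible. Members and lists were chosen with earlier results of these data known. The genes named were the 9 members, in each list the 2 largest and 2 smallest log2 ratios past 2-fold, genes quoted as checks, genes that overlap a member, and the 3 genes nearest to the receptor with the largest ratio; MST1P2, MST1L, TYRO3P, SPINT1, SPINT2, GGCX, VKORC1, VKORC1L1, TUB, TULP1, VAV1, ELMO1, CBL, EPHA10, EPHB4 and the single markers were chosen as checks after their values were seen. Of the planned luminal markers, 2 are not reported here. A planned comparison of protein sequences was not made, because protein sequences were not used here. Alternatives were thresholds of 0.5 and 5 TPM, a pseudocount of 0.1 TPM, no filter, centering on the median, upper-quartile scaling, highest positions of the mark and the largest locus. Python 3.11.15, numpy 2.4.6 and matplotlib 3.10.9 were used.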

Additional observations from a re-analysis of the deposited data

How the results depend on the processing

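No paired analysis was possible because there was a single library of each line. The members higher in RC77 T/E by 2-fold or more numbered 4, and 5 with a pseudocount of 0.1 TPM, with centering on the median or with upper-quartile scaling, since PROS1 then passed. The 2 members higher in MDA PCa 2b became 1 with centering, which took TYRO3 from -1.15 to -0.99. At a threshold of 5 TPM the members expressed in MDA PCa 2b fell from 4 to 1 with marks at their lowest positions and to 2 at their highest, and the receptor tyrosine kinases expressed there from 25 to 13 at the lowest positions and to 18 at the highest. The counts at the highest positions were chosen after seeing the data. No called log2 ratio of a member changed sign under any alternative. The ratios of AXL, MERTK and PROS1 moved by more than 1.5 times with the smaller pseudocount, and PROS1 was within 2-fold as reported. The HGF ratio was -0.06 as reported and -0.54 with the smaller pseudocount. With centering it changed sign to 0.09. Over the whole table, genes that were higher in RC77 T/E by 2-fold or more ranged from 2250 to 2542 and those in MDA PCa 2b from 1880 to 2728. The depth of the libraries is unknown, the deposited table alone gives the levels of MST1R and TYRO3 only to a factor of 10, and the number of cultures behind each library is not given in the sources used here.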
